A study of Homo sapiens with 6 samples.

Results

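Transcripts of TGF-beta family ligands were examined in SUM-LM1 cells, a lung metastatic subline of SUM159, which is a human breast cancer line. Only RNA was read, and whether ligand protein was made or released was not measured. The members were 10 genes chosen by symbol, INHBA, BMP2, BMP4, BMP6, BMP7, TGFB1, TGFB2, TGFB3, GDF15 and NODAL, out of 19775 genes with a named probe set. All probe sets annotated to one of these symbols were taken, 28 of 54613. Cells were kept in HuMEC medium with BSA on ultra-low attachment plates at 12500 cells per ml and received recombinant human activin B at 50 ng/ml, or its vehicle of BSA in PBS without the protein, for 6 h. There were 3 biological replicates of either condition, and an Affymetrix Human Genome U133 Plus 2.0 array was hybridized for each from 50 ng of RNA. Both groups came from 1 cell line, so the spread between the 3 replicates is not a spread between tumors.

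Family ligands are made as precursors, cleaved in the secretory route and released as dimers. Most of them bring type I and type II serine/threonine kinase receptors together. TGF-betas, activins and nodal are known to pass their signal to SMAD2 and SMAD3, and BMPs to SMAD1, SMAD5 and SMAD9. TGF-betas leave the cell in a latent complex and need activation outside it. Several ligands act on the cells that secrete them, and some control their own transcription or that of each other.

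Pairs of arrays correlated at 0.993 to 0.996, and none held identical values. Activin B replicate 3 stood apart on the first principal component, at 21.7 against -10.6 to 5.70 for the other 5 arrays, and each ligand value is given per array below. Of 8 carcinoma line markers 7 were bright, among them VIM at a log2 signal of 13.89, CD44 at 12.50 and KRT18 at 12.09 in vehicle. The junction genes EPCAM and CDH1 were dim, at 6.20 and 6.27. Above the reference for dim probe sets explained below were 1 of 5 junction genes, CLDN3 at 6.86 in vehicle, and 0 of 3 leukocyte markers. So were 1 of 5 endothelial and 2 of 5 fibroblast markers, among the latter COL1A1 at 11.44 in vehicle. Of 7 measured genes known to answer to SMAD signaling ID1, ID2, ID3, SMAD7 and SKIL rose, by 0.63 to 2.85 on the log2 scale, and SMAD6 and PMEPA1 had adjusted p values of 0.336 and 0.161. Over all probe sets, 66 were called at an adjusted p under 0.05, which is 0.121% of those tested, and 0.0732% were called as higher in activin B. By gene, read from the brightest probe set, the share called was 0.192%.

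None of the 28 ligand probe sets was called, in either direction, by the limma fit across all probe sets, of which 0.121% were called. At that share, no call among 28 says little about the ligands. At an unadjusted p under 0.05 there were 3, all higher in activin B, which is 10.7% of the ligand probe sets against 5.28% of all probe sets. They were a BMP2, a TGFB1 and a NODAL probe set. The groups did not overlap in 3 of the 28, higher in 2 and lower in 1, which is 10.7% against 9.79% of all probe sets. Both counts rest on 3 probe sets. Of the 28 log2 changes 14 lay above 0 and 14 below. For the 10 genes the median log2 change was 0.0040, beside -0.0017 over all genes.

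The width of the error is informative for a result of this kind. Over the 28 probe sets the 95% intervals of the log2 change, not adjusted for their number, reached from -0.32 to 0.46, which is 1.25-fold lower to 1.37-fold higher. The smallest log2 change that was called anywhere on the array was 0.37 in size. A change as large as that of ID2, 1.47 on the log2 scale, lay outside every one of the 28 intervals. The paper reports ID2 among the genes most induced by activin B, so this comparison speaks only to large changes. These intervals hold the spread between arrays only. Robust multiarray averaging compresses differences in dim probe sets, so for those an interval says less about the transcript.

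**Figure D1:**
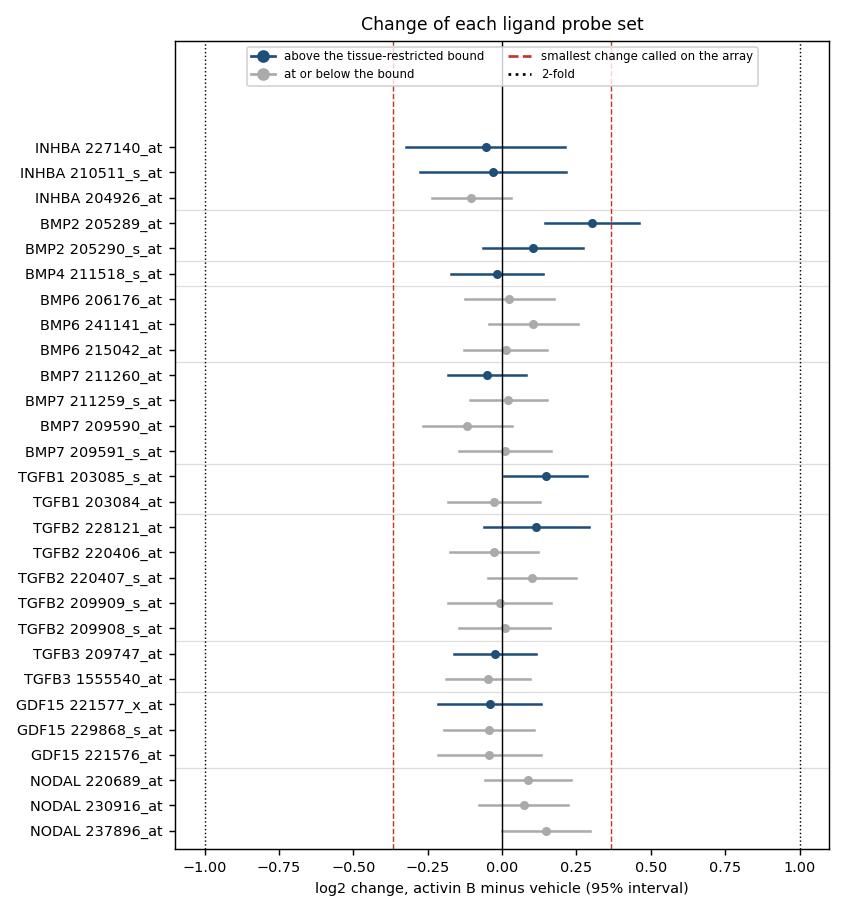
Log2 change, activin B minus vehicle, of each of the 28 ligand probe sets, with bars for the 95% interval from the limma fit. Blue marks the 10 probe sets brighter than the tissue-restricted reference and grey the other 18; red dashed lines mark the smallest change called on the array, 0.37 in size, dotted lines a change of 1 log2 unit, and BMP2 205289_at comes closest to it at 0.30.

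To describe which ligand transcripts were detectable, signals were set beside 45 probe sets of 30 genes that belong to other tissues, such as crystallins, pancreatic enzymes and sperm protamines. These had a median log2 signal of 6.47 over the 6 arrays, a 95th percentile of 6.86 and a highest value of 7.17. Of the 28 ligand probe sets 10 lay above the 95th percentile and 18 at or below it, while 42.0% of all probe sets lay above. By the brightest probe set, 8 of the 10 ligand genes were above, against 56.3% of all genes. A gene with more probe sets has more chances of a bright one, and their number was not matched. Of these 8, BMP4, TGFB2 and TGFB3 still lay under the highest tissue-restricted value, 7.17, at means of 7.11, 6.90 and 6.89. Probe sets differ in how well they bind, so a higher signal of one ligand than of another does not show more of its transcript. In these bulk cultures a lower signal in each cell and fewer cells that express the gene cannot be told apart.

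**Figure D2:**
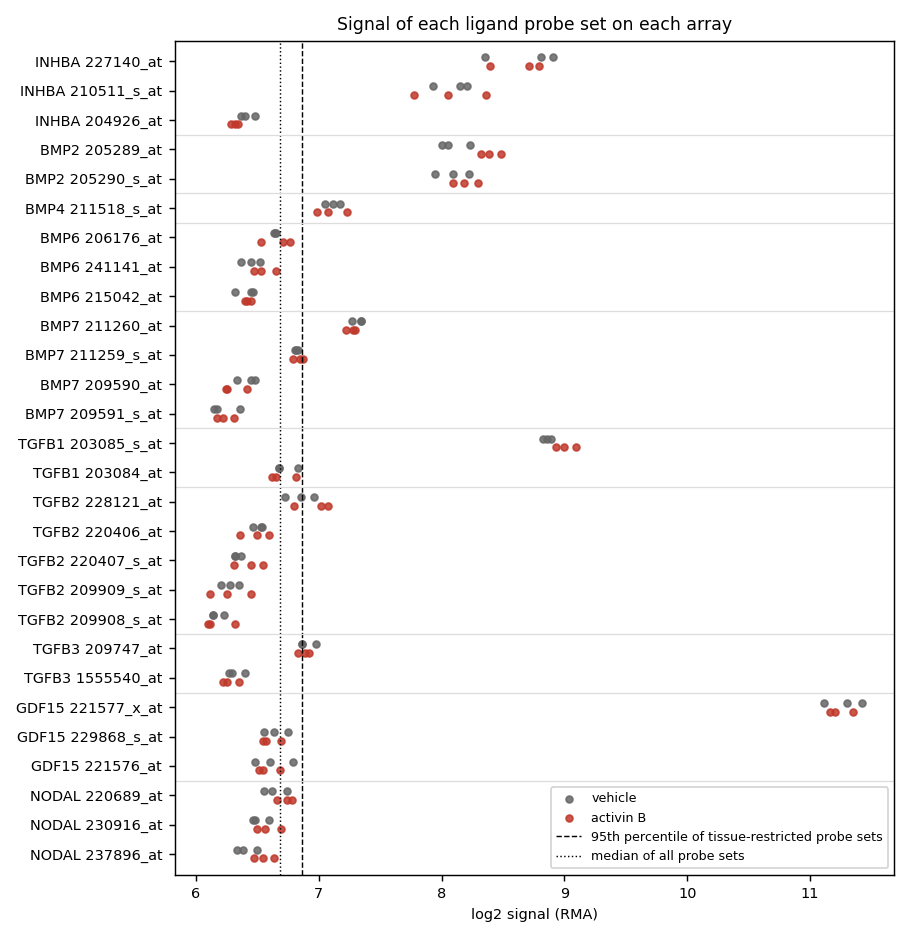
Log2 signal of every ligand probe set on each of the 6 arrays, with grey points for vehicle and red points for activin B. The dotted line is the median of all probe sets, 6.69, and the dashed line the 95th percentile of the tissue-restricted probe sets, 6.86; INHBA, BMP2, TGFB1 and GDF15 each have a probe set far to the right of both.

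INHBA, TGFB1 and GDF15 were among the genes with a bright probe set, and the bases before their transcription starts are shown to place them. The windows are the 250 bases before the first RefSeq base, on assembly GRCh38.p14 and written 5' to 3' on the strand of the gene. INHBA lies at chr7:41703091-41703340 on the minus strand, TGFB1 at chr19:41353923-41354172 on the minus strand and GDF15 at chr19:18385908-18386157 on the plus strand. Capitals mark TATAAA, the core of a TATA box.

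INHBA: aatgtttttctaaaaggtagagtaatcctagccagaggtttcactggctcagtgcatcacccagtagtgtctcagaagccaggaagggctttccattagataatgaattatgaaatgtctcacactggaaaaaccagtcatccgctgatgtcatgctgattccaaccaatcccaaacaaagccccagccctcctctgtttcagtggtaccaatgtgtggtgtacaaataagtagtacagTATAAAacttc
TGFB1: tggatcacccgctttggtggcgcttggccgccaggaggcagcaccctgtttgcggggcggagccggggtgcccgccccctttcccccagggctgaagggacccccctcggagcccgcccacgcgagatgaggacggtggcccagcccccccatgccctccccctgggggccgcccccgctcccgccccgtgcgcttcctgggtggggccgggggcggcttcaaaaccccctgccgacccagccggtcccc
GDF15: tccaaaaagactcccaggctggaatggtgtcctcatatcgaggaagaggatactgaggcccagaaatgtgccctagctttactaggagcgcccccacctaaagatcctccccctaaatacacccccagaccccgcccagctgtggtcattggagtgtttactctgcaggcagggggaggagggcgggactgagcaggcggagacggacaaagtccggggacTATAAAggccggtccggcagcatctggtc

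TATAAA began 11 bases before the start of INHBA and 29 before that of GDF15, and the TGFB1 window held none. On either strand, 10.7% of 35116 windows of this length held it. RefSeq starts were matched for 8 of the 10 ligands, 11 starts in all, and 4 of these windows held TATAAA, those of INHBA, GDF15, TGFB2 and 1 start of TGFB3. BMP2 and BMP7 had no entry. The share of G and C was 76.8% for TGFB1, 42.8% for INHBA and 58.4% for GDF15, beside a median of 58.0% over all windows. Of the other letters searched on both strands, GGCGCC stood before 1 of 3 BMP4 starts (16.4% of all windows), and TGACTCA (4.2%) and TGACGTCA (1.65%) stood before none. The arrays measured no binding at these windows.

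INHBA encodes the inhibin beta A subunit, whose homodimer is activin A, the close relative of the protein that was added. Its brightest probe set, 227140_at, read 8.35, 8.81 and 8.91 in vehicle replicates 1, 2 and 3 and 8.39, 8.71 and 8.80 in activin B replicates 1, 2 and 3. Replicate 1 was the lowest array of both groups, and the groups overlapped. The means were 8.69 ± 0.30 and 8.63 ± 0.21 (SD, n = 3), a log2 change of -0.06 with a 95% interval from -0.32 to 0.21 (adjusted p = 0.999). A second bright probe set, 210511_s_at, read 7.93, 8.15 and 8.21 in vehicle and 7.78, 8.05 and 8.36 in activin B, and changed by -0.03. Here too replicate 1 was the lowest of each group. The third, 204926_at, was dim, between 6.29 and 6.48 on every array; its activin B values lay under all vehicle values, by a mean of -0.10 on the log2 scale (adjusted p = 0.988).

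The spread of INHBA between arrays of a group exceeded the difference between groups. The pooled SD within groups was 0.258 for 227140_at, above that of 99.8% of all probe sets on the array, and 0.231 for 210511_s_at, above 99.6%. On the first principal component replicate 1 was also the lowest array of each group, at -10.6 and -9.10, and replicate 3 the highest, at 5.70 and 21.7; whether the same cause set INHBA was not tested. Without vehicle replicate 1 the log2 change of 227140_at was -0.22 (unadjusted p = 0.048, adjusted p = 0.999). It was 0.07 without activin B replicate 1, 0.05 without vehicle replicate 3 and 0.01 without vehicle replicate 2, so its direction rested on single arrays. With the replicate number as a block its standard error went from 0.125 to 0.063 and the log2 change stayed at -0.06 (adjusted p = 0.933). The genes whose brightest probe set ran most like that of INHBA over the 6 arrays were CIRBP, DUSP12, FCGR2B, NAA20 and CT55, with Pearson r between 0.986 and 0.994. This list for INHBA was drawn up after its values were seen, and 58 genes exceeded a Pearson r of 0.95 with it. The number that would do so by coincidence was not tested.

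**Figure D3:**
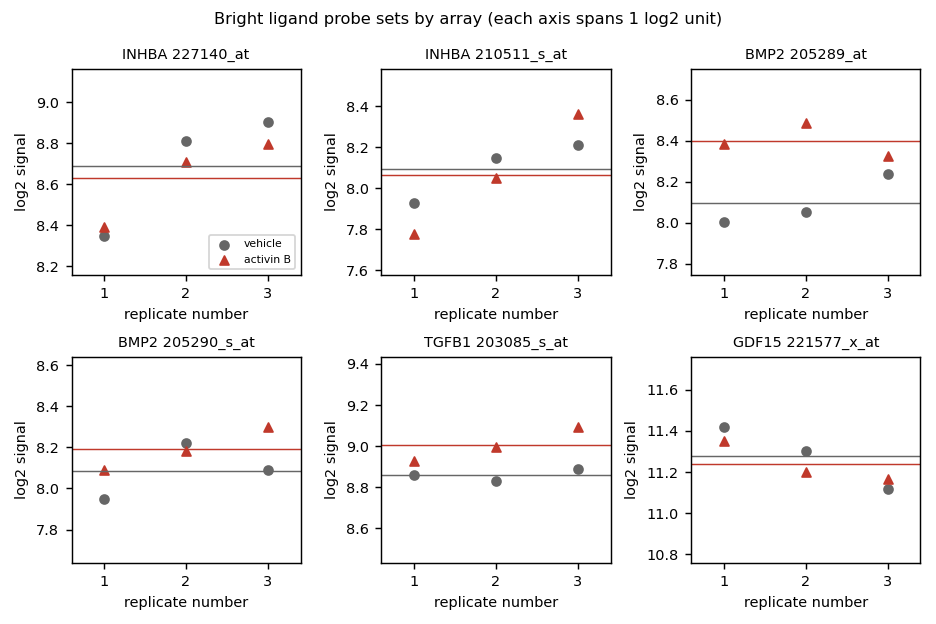
Log2 signal of 6 bright ligand probe sets by replicate number, vehicle as grey circles and activin B as red triangles, with lines at the group means; each axis spans 1 log2 unit. For INHBA, replicate 1 is lowest in both groups, and only for BMP2 205289_at and TGFB1 203085_s_at do all activin B values exceed all vehicle values.

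The beta B subunit itself, the product of INHBB and the building block of the added ligand, was read at 6.57, 6.43 and 6.58 in vehicle and 6.53, 6.53 and 6.45 in activin B. All 6 values lay under the 95th percentile of the tissue-restricted probe sets. INHA, the alpha subunit that turns activin subunits into inhibins, was dim as well, at 6.51 in vehicle and 6.37 in activin B (log2 change -0.14 ± 0.06, SE; adjusted p = 0.934).

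BMP2 is a bone morphogenetic protein that signals through SMAD1/5. It had the largest change and the smallest p of the 10 ligands. Probe set 205289_at read 8.0, 8.05 and 8.24 in vehicle and 8.39, 8.48 and 8.32 in activin B. All 3 activin B values lay above all 3 vehicle values, with vehicle replicate 3 and activin B replicate 3 closest to each other. The means were 8.10 ± 0.12 and 8.40 ± 0.08 (SD, n = 3). This is a 1.23-fold difference, a log2 change of 0.30 with a 95% interval from 0.14 to 0.46, which did not pass (adjusted p = 0.318). Over 15 alternative fits and omissions of single arrays the log2 change of 205289_at stayed between 0.25 and 0.37. Its adjusted p ranged from 0.134 with array weights to 0.953 without vehicle replicate 2. For the mean of all BMP2 probe sets the log2 change was 0.20 (limma, adjusted p = 0.511).

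The second BMP2 probe set was as bright and gave less. 205290_s_at read 7.95, 8.22 and 8.09 in vehicle and 8.09, 8.18 and 8.30 in activin B, with overlapping groups. Its log2 change was 0.10 with an interval from -0.06 to 0.27 (adjusted p = 0.995). The difference between the changes of both BMP2 probe sets was 0.20 on the log2 scale (exact permutation test, two-sided, p = 0.3). Over the 9 ligands with more than 1 probe set, the brightest was compared with the next in this way, and every adjusted p was 0.900 or 1 (Benjamini-Hochberg over 9 exact permutation tests, of which none can go below 0.1).

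Genes whose brightest probe set ran most like that of BMP2 over the 6 arrays were MPV17L, FRMD3, NDN, NUP210L and TNP1, with Pearson r from 0.983 to 0.992. None of the 5 was called, and 41 genes exceeded 0.95. How many would do so by coincidence over 6 arrays was not tested. TNP1, a sperm nuclear protein, was 1 of the tissue-restricted genes, at a mean signal of 6.57.

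BMP4, the closest relative of BMP2 by family, was represented by 1 probe set. 211518_s_at read 7.05, 7.18 and 7.11 in vehicle and 7.07, 7.23 and 6.99 in activin B, so that the activin B arrays held both the highest and the lowest value. Its log2 change was -0.02 with an interval from -0.17 to 0.14. BMP6 and BMP7 belong to another branch of the BMPs. All 3 BMP6 probe sets lay at or below the tissue-restricted bound, between 6.32 and 6.77 on single arrays, and their log2 changes were 0.02, 0.11 and 0.01. Of 4 BMP7 probe sets 211260_at stood above the bound, at 7.34, 7.34 and 7.27 in vehicle and 7.30, 7.22 and 7.28 in activin B. It changed by -0.05 with an interval from -0.18 to 0.08, and the other 3, all dim, by 0.02, -0.12 and 0.01.

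TGFB1 is the most widely expressed of the TGF-beta isoforms, and controls growth arrest and matrix production in many cell types. Probe set 203085_s_at read 8.86, 8.83 and 8.89 in vehicle and 8.93, 9.0 and 9.09 in activin B. The groups did not overlap, with means of 8.86 ± 0.03 and 9.01 ± 0.08 (SD, n = 3). The log2 change was 0.15, or 1.11-fold, with an interval from 0.01 to 0.28 (unadjusted p = 0.0409, adjusted p = 0.934). Without activin B replicate 3, the array that stood apart, it was 0.10 (unadjusted p = 0.156). The other TGFB1 probe set, 203084_at, was dim, between 6.62 and 6.83, and changed by -0.03.

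TGFB2 and TGFB3, isoforms with narrower expression in development, lay near the tissue-restricted bound. The brightest of 5 TGFB2 probe sets, 228121_at, read 6.72, 6.96 and 6.85 in vehicle and 7.02, 6.79 and 7.07 in activin B, and its groups overlapped. Its log2 change was 0.11 with an interval from -0.06 to 0.29. This size moved with single arrays, to 0.05 or 0.17 when vehicle replicate 1 or 2 was left out, and to 0.20 or 0.06 when activin B replicate 2 or 3 was. The other 4 were dim and changed by -0.03 to 0.10. For TGFB3, 209747_at read 6.98, 6.86 and 6.86 in vehicle and 6.83, 6.89 and 6.92 in activin B, a change of -0.02, and the dim 1555540_at changed by -0.05. These values do not settle whether either transcript was present.

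GDF15 is a distant member of the family that cells release under stress and that acts on a receptor in the brain stem. Probe set 221577_x_at was the brightest ligand probe set, at 11.42, 11.30 and 11.12 in vehicle and 11.35, 11.20 and 11.17 in activin B. Replicate 1 was the highest and replicate 3 the lowest of each group, and the groups overlapped. The means were 11.28 ± 0.15 and 11.24 ± 0.10 (SD, n = 3), a log2 change of -0.04 with an interval from -0.21 to 0.13. Without single arrays it ranged from -0.12, without vehicle replicate 3, to 0.03, without vehicle replicate 1. The suffix x marks probes that can bind other transcripts as well. The other 2 GDF15 probe sets were dim, with 229868_s_at at 6.65 and 221576_at at 6.62 in vehicle, and changed by -0.04 each. Thus the high signal rested on 1 of the 3. Robust multiarray averaging compresses differences in dim probe sets, so the similar change of the other 2 says little about GDF15.

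Of 12 genes linked to GDF15 by stress signaling, none was called, where 0.192% of all genes were. Their median log2 change was 0.0024. CDKN1A and TP53INP1 differed by 0.23 ± 0.07 and 0.16 ± 0.07 on the log2 scale (SE; adjusted p = 0.668 and 0.934). EGR1 and ATF3 had -0.15 ± 0.09 and 0.12 ± 0.08 (SE; adjusted p = 0.985 and 0.995).

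NODAL, an embryonic ligand that needs a Cripto co-receptor, was dim in all 3 probe sets, between 6.33 and 6.78 over the 6 arrays. Its brightest, 220689_at, read 6.56, 6.62 and 6.74 in vehicle and 6.78, 6.74 and 6.66 in activin B (log2 change 0.09, interval -0.06 to 0.23). The dimmest, 237896_at, had a log2 change of 0.15 at an unadjusted p of 0.0498 (adjusted p = 0.946), with values of 6.5, 6.39 and 6.33 in vehicle and 6.47, 6.64 and 6.55 in activin B. Its groups overlapped, and all 6 values lay under the tissue-restricted bound.

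Other genes of the ligand system were counted from lists. Of all genes 0.192% were called, so no call in lists as short as these says little about them. Of 23 other family ligands 19 were measured, none was called, and the median log2 change was -0.04. By their brightest probe sets 5 of the 19 lay above the tissue-restricted bound, the highest in vehicle being INHBC at 8.73, from a probe set shared between transcripts. The smallest p values in this list were those of INHA, above, of GDF3 with a log2 change of 0.14 ± 0.06, and of the BMP relatives BMP3 and BMP15 with -0.12 ± 0.07 each (SE; adjusted p = 0.934, 0.976 and 0.984). GDF3, BMP3 and BMP15 lay under the bound in both group means.

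Storage and activation of ligands was read from 23 measured genes, none of them called, with a median of -0.02. ITGB8, an integrin subunit that pairs with the alpha V chain to release TGF-beta from its latent complex, had the smallest p. It read 9.89, 9.75 and 9.80 in vehicle and 9.52, 9.54 and 9.40 in activin B, without overlap. Its log2 change was -0.32 ± 0.07 (SE; adjusted p = 0.138). For its partner ITGAV the log2 change was 0.14 ± 0.06 (SE; adjusted p = 0.934). PCSK6, a convertase that cleaves ligand precursors, had -0.16 ± 0.06, and MMP14, a membrane-bound protease, -0.11 ± 0.06 (SE; adjusted p = 0.880 and 0.972).

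Of 18 measured receptors and co-receptors none was called, and the median was -0.0081. By their brightest probe sets 13 of the 18 lay above the tissue-restricted bound. ACVR1C, a type I receptor for nodal and activin B, had -0.18 ± 0.07, the endothelial type I receptor ACVRL1 0.19 ± 0.07, the co-receptor TGFBR3 -0.15 ± 0.07 and AMHR2 -0.12 ± 0.06 (SE; adjusted p = 0.859, 0.874, 0.934 and 0.972). ACVRL1 and AMHR2 lay under the bound on every array, with vehicle means of 6.55 and 6.78.

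Of 16 secreted antagonists none was called either, and 7 lay above the tissue-restricted bound. NOG encodes noggin, which binds BMP2 and BMP4 and keeps them from their receptors. It read 7.92, 8.06 and 8.28 in vehicle and 8.42, 8.44 and 8.45 in activin B, with no overlap. Its log2 change was 0.35 ± 0.08 (SE; adjusted p = 0.219). Of all alternatives, NOG passed only without vehicle replicate 3 (log2 change 0.45, adjusted p = 0.0455). That was its vehicle array closest to activin B, so the omission widened the gap between groups. CER1, SOST and CHRDL2, all antagonists of BMPs or related ligands, had -0.17 ± 0.06, 0.15 ± 0.07 and 0.14 ± 0.07 (SE; adjusted p = 0.841, 0.934 and 0.959). CER1, SOST and CHRDL2 lay under the bound on every array.

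**Figure D4:**
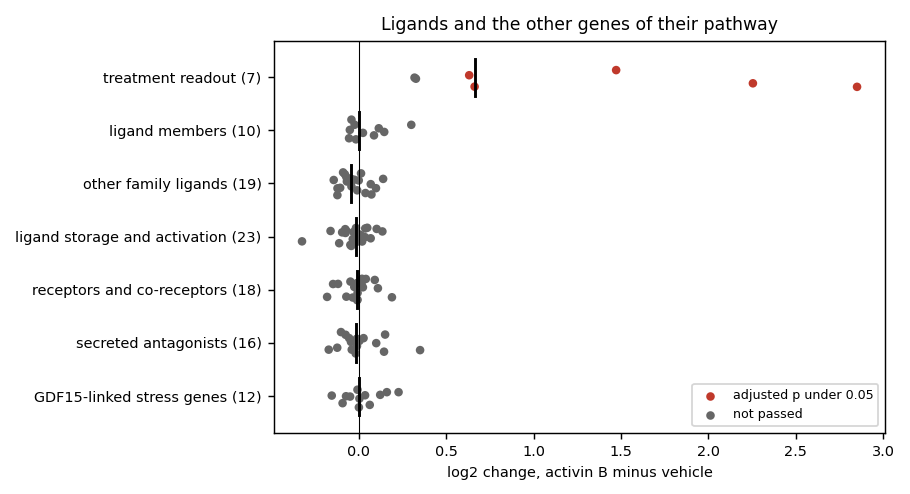
Log2 change, activin B minus vehicle, of each gene by its brightest probe set in 7 lists, with the number measured in brackets; bars are list medians, red points passed at an adjusted p under 0.05 and grey ones did not. The 5 red points all belong to the treatment readout, and the 10 ligands lie between -0.06 and 0.30.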

How the data were processed

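Log2 signals of 6 arrays were deposited by the authors, who per the methods of the study had used Chipster for robust multiarray averaging (RMA) of the raw scans. That step equalizes the array distributions, which removes shifts common to most transcripts, and compresses differences near background. Groups and replicate numbers came from the sample titles. The 62 control probe sets were removed, which left 54613. Genes were named where the platform annotation gave 1 symbol (41091 probe sets; 1801 carried several and 11721 were unnamed here), and were read from their brightest probe set by the mean of all 6 arrays.

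Groups were compared across all probe sets with limma 3.58.1 in R 4.3.3 (lmFit and eBayes, with 4 residual and 10.8 prior degrees of freedom), an empirical Bayes test as in the study, with Benjamini-Hochberg adjustment over all probe sets and calls at an adjusted p under 0.05. Intervals are at 95%. The labels name biological replicates but not how cultures were separated, so p-values cover only the scatter of these 6 arrays, and their number sets the precision. Exact permutation tests used scipy 1.17.1. The fit was tested on simulated data. Alternatives were a replicate block, filters on dim probe sets, 3 renormalizations, other priors, array weights, leaving out each array and other probe set rules. Genes named were all members, the readout genes, up to 4 of smallest p per list, every called list gene, and the 5 genes most like the member of smallest p; others, markers, INHBB and INHBC among them, were picked with their values in view. The members and lists were chosen with earlier results of these data known. Scanner files were not used here.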

Additional observations from a re-analysis of the deposited data

How the results depend on the processing

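No ligand probe set was called under any of the 15 alternative fits and omissions of single arrays, with a smallest adjusted p of 0.134, and no ligand gene was called under the other 2 probe set rules. Signals in vehicle moved by less than 1 SD under every renormalization. Of 161 log2 changes of ligand genes under alternatives, 11 had another sign than reported. None of the 11 was called, and none was over 0.0653 in size under the alternative. As reported, these log2 changes reached 0.146 in size, for TGFB1. Without shared or cross-hybridising probe sets the TGFB1 change was -0.03. The filters left 8 ligand genes above the median signal and 4 at a mean of 7.5 or more. Over all probe sets, 40 were called up and 26 down. Leaving out single arrays gave 25 to 50 up and 7 to 26 down, and a mean of 7.5 or more gave 24 up, over fewer probe sets. Readout genes called fell from 5 to 2 without shared or cross-hybridising probe sets, by which ID1, ID2 and ID3 were read. Omitting arrays gave 0 or 1 called antagonists, NOG without vehicle replicate 3.

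The replicate number as a block gave 53 up and 44 down, and called no ligand. Same-numbered arrays correlated at 0.162, 0.0410 and 0.192 in their deviations from the group means. Every array correlated best with its own number, a hint from the data, but pair 2 was under 0.1, so the arrays were not treated as paired. The limits are: dim probe sets near background, and 3 arrays per group.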
